A study of Homo sapiens with 12 samples.

Results

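RNA levels of 10 genes of the ATF4-CHOP arm of the cellular stress response were followed in 2 non-small cell lung cancer (NSCLC) cell lines. With ISP-I, 6 of the 9 genes tested rose in H460, where 10.5% of all genes tested rose. In A549, 6 of 9 rose, where 4.2% of all genes tested did. The members are a list of named genes: ATF3, ATF4, DDIT3 (the gene of CHOP), PPP1R15A (GADD34), TRIB3, CHAC1, EIF2AK3 (PERK), SESN2, CEBPB and NUPR1, which are 10 of the 19973 genes in the table. H460 and A549 are established human NSCLC lines, labelled WT, and ISP-I is isovalerylspiramycin I, a macrolide that is the main component of carrimycin. The label does not mean a wild-type genome, since the paper states that both lines have homozygous inactivating mutations of KEAP1. Each line was either non-treated (control) or exposed to ISP-I (10 µM, 48 h), and each of these 4 groups had 3 libraries, or 12 together. The non-treated cells are the only controls of these data, and each line is a single tumour-derived culture model.

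The integrated stress response begins when a kinase such as PERK phosphorylates the translation factor eIF2, which lowers general protein synthesis and favours translation of the ATF4 mRNA. ATF4, a basic leucine zipper (bZIP) transcription factor, then induces stress and amino acid genes, among them DDIT3, and CHOP is known for tipping lasting stress toward cell death. PPP1R15A encodes the phosphatase subunit that reverses eIF2 phosphorylation, so the arm carries its own brake. Since ATF4 and the kinases are governed largely at the level of protein, mRNA levels describe only part of the pathway.

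The values are FPKM, reads on a gene relative to the length of that gene and to all reads on genes in the library, so levels can be set side by side between genes. Reads on genes numbered 14225849 to 17874422 per library. No library was a second copy of another, since each pair within a group gave a chi-square per degree of freedom of 3.03 to 98.7 over genes, where read sampling alone gives about 1. The methods mention independent experiments in general without tying this to the RNA libraries, so the p values measure the spread between these libraries, which may be technical. Of the epithelial markers, KRT8 (168 to 748 FPKM) and KRT18 (66.9 to 418 FPKM) were high in every library, KRT7 was high in A549 only (512 to 637 FPKM against at most 4.65 FPKM in H460), and EPCAM and CDH1 were at most 0.148 FPKM in H460. Of 9 markers of blood, endothelial and fibroblast cells, the highest value was 6.43 FPKM, for CD14 in H460 controls, and the others were at most 1.30 FPKM.

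The regulatory sequence in front of these genes was read from hg38 as a description. For 9 of the 10 genes, the 1000 bases before the start of the MANE Select transcript (the reference transcript shared by NCBI and Ensembl) were searched on both strands for the letters TGATGNAA, the C/EBP-ATF response element that ATF4 and its partners are known to bind, and TGACGTCA, the cAMP response element. The first was found in 5 of these 9 members, against 11.3% of 19061 promoters, and the second in PPP1R15A alone, against 3.38% of promoters. Since the members were chosen for their place in the ATF4-CHOP arm, these shares describe the list and are no test of the response to ISP-I. The stretches with a match are printed in the direction of the gene, with the matched letters in capitals, so that the members can be compared.
ATF3, 203 bases before the start, chr1:212608542-212608581, plus strand: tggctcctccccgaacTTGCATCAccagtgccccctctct
ATF3, 21 bases before the start, chr1:212608724-212608760, plus strand: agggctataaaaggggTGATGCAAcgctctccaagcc
DDIT3, 306 bases before the start, chr12:57520797-57520836, minus strand: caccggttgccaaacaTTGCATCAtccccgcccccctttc
CHAC1, 209 bases before the start, chr15:40953246-40953285, plus strand: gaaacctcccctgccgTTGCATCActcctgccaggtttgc
EIF2AK3, 860 bases before the start, chr2:88628301-88628340, minus strand: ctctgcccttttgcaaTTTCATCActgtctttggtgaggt
SESN2, 296 bases before the start, chr1:28259206-28259245, plus strand: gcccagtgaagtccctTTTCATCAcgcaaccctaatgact
PPP1R15A, 58 bases before the start, chr19:48872347-48872386, plus strand: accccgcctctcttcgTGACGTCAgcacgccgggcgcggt

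In 5 of the 6 response element matches the letters lie on the opposite strand, so they read TTGCATCA or TTTCATCA, and ATF3 is the gene with a match in each direction. ATF4, TRIB3 and CEBPB held neither set of letters in this window. In the shorter window of 250 bases before to 50 after the start, ATF3 and CHAC1 held the response element letters, against 2.46% of promoters. A match describes letters and is not a measured binding site. Match and rise did not go together gene by gene. Of the members with a match, ATF3, DDIT3 and PPP1R15A rose in both lines, EIF2AK3 and SESN2 in H460 only, and CHAC1 in neither. Of those without, CEBPB rose in both lines, ATF4 and TRIB3 rose in A549 only, and TRIB3 fell in H460.

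**Figure D1:**
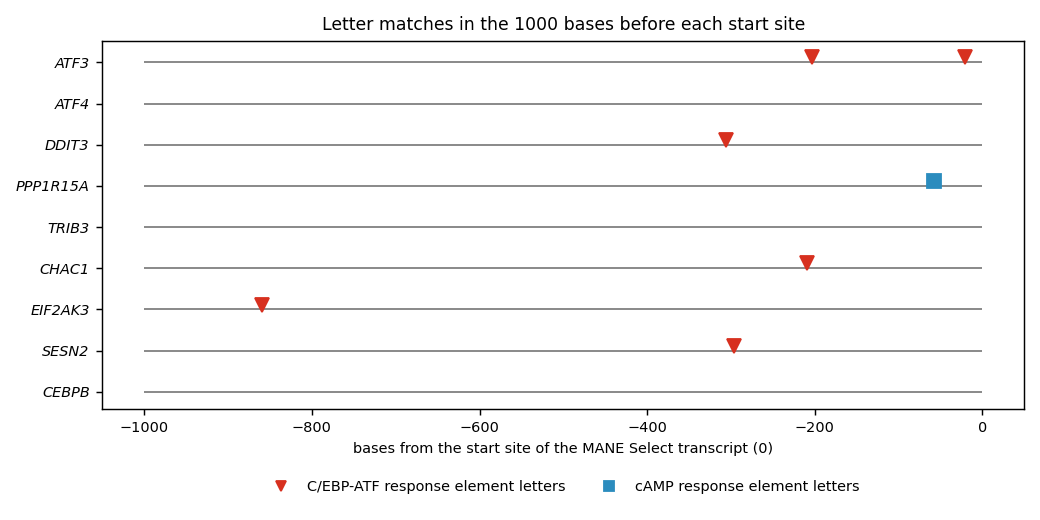
Position of the letter matches in the 1000 bases before the start of each of 9 genes, in bases from the start site. Triangles mark the C/EBP-ATF response element letters, found in 5 genes, and the square marks the cAMP response element letters, found in PPP1R15A 58 bases before the start.

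The first question was which members ISP-I changed in each line. A gene is said here to rise or fall, and is counted as called, if limma on log2(FPKM + 1) gave a fold change over 2 on that scale and a Benjamini-Hochberg adjusted p under 0.05 over all genes tested. In H460, 6 of the 9 members tested rose and 1 fell, where 10.5% of all genes tested rose and 15.2% fell. That balance turned with median-of-ratios scaling, where 1954 genes rose and 1504 fell of 13530, against 1409 and 2047 of 13423, and the members then came to 7 and 0. In A549, 6 of 9 rose and 0 fell, where 4.2% of all genes tested rose and 3.51% fell. There 1 member, CHAC1, was lower at an adjusted p under 0.05 in limma by less than 2-fold, and was called by limma voom. The median log2 change of the 9 members was 1.63 in H460 and 1.22 in A549, against -0.15 and 0.02 over all genes tested. The members were chosen with earlier results of these data known, so these counts and medians describe the list and are no independent test. ATF3, DDIT3, PPP1R15A and CEBPB rose in both lines. How many of all genes tested rose in both lines was not counted. EIF2AK3 and SESN2 rose in H460, ATF4 and TRIB3 rose in A549, and TRIB3 fell in H460. In RNA from whole cultures, a change in RNA per cell and a change in the share of cells that express a gene cannot be told apart. The plot of levels by library shows the values that follow.

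**Figure D2:**
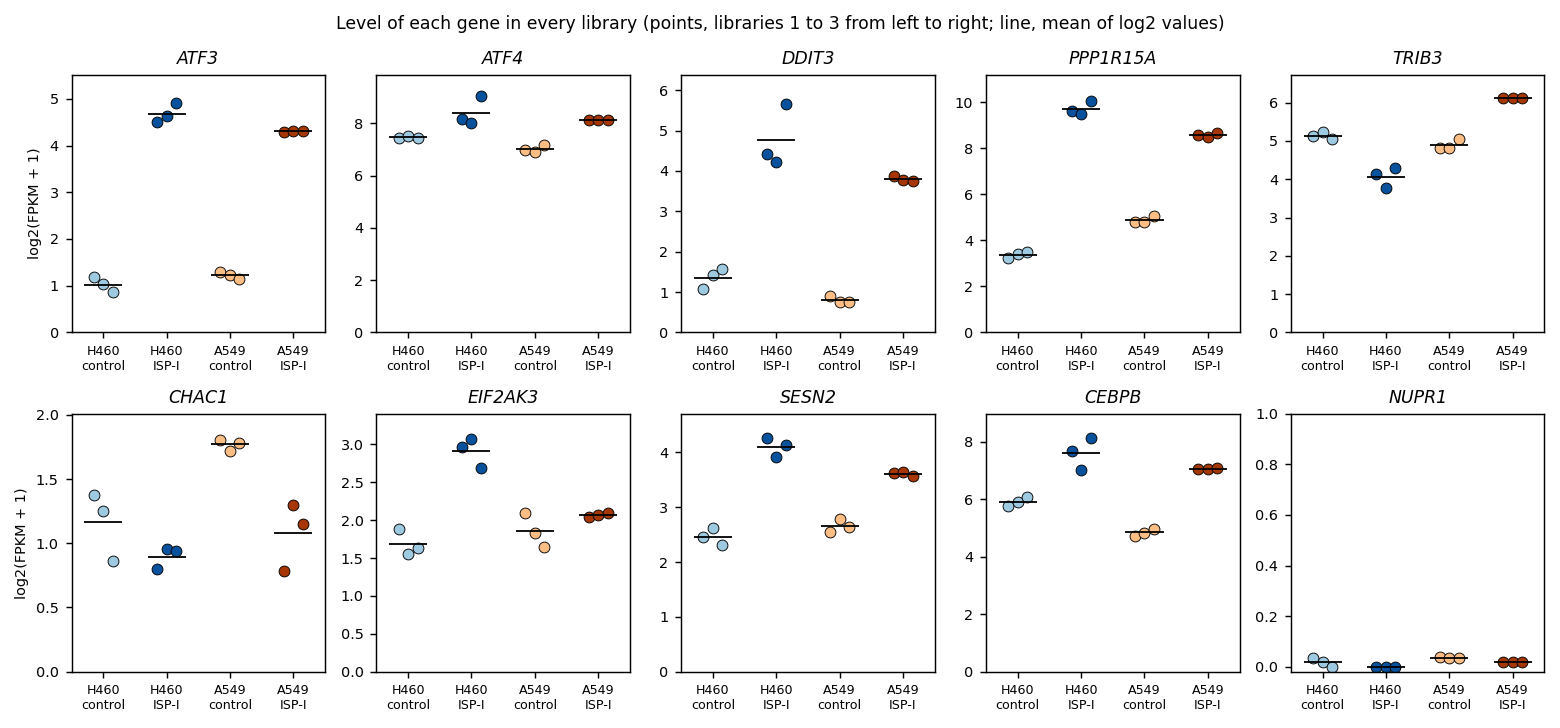
Level of each of the 10 genes in every library as log2(FPKM + 1), for H460 and A549 without and with ISP-I; each point is a library and each line the mean of 3. ISP-I libraries lie above all controls of their line for ATF3, ATF4, DDIT3, PPP1R15A, SESN2 and CEBPB, TRIB3 lies lower in H460 and higher in A549, and NUPR1 lies near 0 throughout. How many of all genes separate in this way was not counted. At a limma adjusted p under 0.05 and any fold, 3711 of 13423 genes were higher and 5576 lower in H460. In A549, 4185 of 13705 were higher and 3702 lower.

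EIF2AK3 (ENSG00000172071, chr2:88556741-88627464, minus strand) encodes PERK, the eIF2 kinase of the endoplasmic reticulum. In H460 its level was 2.69, 1.93 and 2.10 FPKM in the controls and 6.84, 7.43 and 5.46 FPKM with ISP-I. The groups did not overlap, and the gene rose by 1.22 ± 0.15 (SE) on the log2 scale (limma, adjusted p = 0.000102), or 2.94-fold in mean FPKM. In A549 the controls were 3.29, 2.55 and 2.12 FPKM and the ISP-I libraries 3.12, 3.21 and 3.26 FPKM. All 3 A549 ISP-I libraries lay within the range of the controls, and the log2 change of 0.21 had a 95% interval of -0.06 to 0.48 (limma, adjusted p = 0.155). The top of that range was control library 1. Without it the change was 0.335 (limma, adjusted p = 0.0237), and without control library 3 it was 0.105 (limma, adjusted p = 0.327). The long non-coding RNA gene ENSG00000225420 overlaps the span of EIF2AK3 by 18870 bases on the opposite strand.

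ATF4 (ENSG00000128272, chr22:39519672-39522683, plus strand) is the transcription factor at the centre of the response, and it had the highest level of the 10 genes in untreated cells of both lines. In H460 it was 172, 180 and 174 FPKM in the controls and 290, 257 and 522 FPKM with ISP-I. Every ISP-I library was above every control, but library 3 stood well above the other two. The log2 change was 0.94 ± 0.25, which passed on p and fell short of a doubling (limma, adjusted p = 0.00961). Without library 3 it was 0.63 (adjusted p = 0.000625), without library 1 or 2 it was called at 1.06 and 1.14 (limma, adjusted p = 0.0181 and 0.00321), and after median-of-ratios scaling, which moved the median change of all genes in H460 from -0.15 to 0.01, it was 1.23 and was called. In A549, ATF4 went from 125, 118 and 144 FPKM to 277, 277 and 282 FPKM. The treated libraries were nearly alike, and the gene rose by 1.11 ± 0.09 (limma, adjusted p = 2.03e-05), which was 0.998 and so just short of a doubling after quantile normalization. ATF4 has 4 named pseudogenes in the annotation, so reads may be shared with them.

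DDIT3 (ENSG00000175197, chr12:57516588-57521737, minus strand) encodes CHOP, the pro-apoptotic bZIP factor downstream of ATF4. In H460 it was read at 1.12, 1.66 and 1.95 FPKM in the controls, or 21 to 38 reads, and at 20.3, 17.7 and 49.9 FPKM with ISP-I, or 386 to 967 reads. It rose by 3.42 ± 0.34 (limma, adjusted p = 3.69e-05). The ratio of means was 18.6, and without ISP-I library 3 it was 12.1, so that library carried part of the size. In A549 the controls were 0.861, 0.677 and 0.674 FPKM and the ISP-I libraries 13.7, 12.8 and 12.5 FPKM, a 17.6-fold ratio of means. The log2 rise of 3.01 ± 0.08 (limma, adjusted p = 2.07e-07) was measured from 13 to 16 control reads per library. DDIT3 overlaps MARS1 by 982 bases and MBD6 by 1028 bases, both on the opposite strand, and the strand setting of the counting is not given in the sources used here. On the same strand it overlaps the protein-coding gene ENSG00000285133 by 2769 bases, and that gene had a mean of 0 FPKM in all 4 groups. Reads shared by these genes may have been left uncounted, which was not tested. Mean MARS1 went from 48.04 to 24.02 FPKM in H460 and in A549 from 43.7 to 24.3 FPKM. Mean MBD6 went from 11.6 to 5.83 FPKM and from 6.88 to 5.22 FPKM, so the means of both opposite-strand neighbours were lower with ISP-I.

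ATF3 (ENSG00000162772, chr1:212565334-212620777, plus strand) is a stress-induced bZIP factor that ATF4 is known to activate. In H460 it was 1.27, 1.04 and 0.814 FPKM in the controls and 21.8, 23.6 and 29.0 FPKM with ISP-I. It rose by 3.65 ± 0.14 (limma, adjusted p = 4.03e-07), a 23.8-fold ratio of means, and ranked 59 of 13423 genes by the size of the rise. In A549 it went from 1.46, 1.35 and 1.22 FPKM to 18.48, 18.98 and 18.88 FPKM. Treated and control libraries did not overlap in either line, and the A549 rise was 3.08 ± 0.07 (limma, adjusted p = 1.09e-07), rank 20 of 13705.

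CEBPB (ENSG00000172216, chr20:50190830-50192668, plus strand) is a single-exon gene whose product pairs with ATF4 and CHOP. In H460 it was 53.8, 58.9 and 67.3 FPKM in the controls and 206, 129 and 282 FPKM with ISP-I. The treated libraries were spread widely, yet each was above every control, and the rise was 1.69 ± 0.26 (limma, adjusted p = 0.000463), or 1.43 without library 3. In A549 it went from 25.5, 27.7 and 30.6 FPKM to 132, 132 and 135 FPKM. This rise of 2.21 ± 0.08 (limma, adjusted p = 5.65e-07) placed CEBPB at rank 48 of 13705 in A549, against rank 566 of 13423 in H460. The antisense gene CEBPB-AS1 overlaps it by 669 bases, and reads of that stretch cannot be told apart without strand.

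PPP1R15A (ENSG00000087074, chr19:48872421-48876058, plus strand) encodes GADD34, which recruits protein phosphatase 1 to eIF2, and it showed the largest log2 change of the members in H460. In H460 it was 8.32, 9.69 and 10.3 FPKM in the controls and 788, 721 and 1044 FPKM with ISP-I. The log2 rise was 6.34 ± 0.17 (limma, adjusted p = 9.48e-08), a 90.1-fold ratio of means, and rank 5 of 13423 genes by rise. It became the member with the highest level, and with ISP-I its mean level of 851 ± 171 FPKM (SD, n = 3) placed it at rank 26 of all 19973 genes. In A549 it went from 27.1, 26.8 and 32.2 FPKM to 380, 360 and 398 FPKM. That rise was 3.68 ± 0.09 (limma, adjusted p = 1.09e-07), 13.2-fold in mean FPKM and rank 9 of 13705.

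TRIB3 (ENSG00000101255, chr20:362835-397559, plus strand) encodes a pseudokinase that CHOP and ATF4 induce and that feeds back on ATF4. In H460 it was 33.8, 36.5 and 32.0 FPKM in the controls and 16.7, 12.7 and 18.6 FPKM with ISP-I. All treated libraries lay below all controls, and TRIB3 fell by 1.06 on the log2 scale with an SE of 0.15 (limma, adjusted p = 0.000289), which was 2.13-fold lower in mean FPKM. The fall did not reach a doubling without ISP-I library 2 (-0.91) or after median-of-ratios scaling (-0.79), and its direction held in both. In A549 it went the other way, from 27.0, 27.3 and 32.0 FPKM to 68.0, 68.2 and 68.5 FPKM. That was a rise of 1.22 ± 0.08 (limma, adjusted p = 7.89e-06), 2.37-fold in mean FPKM.

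SESN2 (ENSG00000130766, chr1:28259518-28282491, plus strand) encodes sestrin 2, a stress-induced inhibitor of mTORC1 signalling. In H460 it went from 4.52, 5.13 and 3.95 FPKM to 18.1, 14.0 and 16.5 FPKM, a rise of 1.63 ± 0.14 (limma, adjusted p = 1.28e-05). In A549 it went from 4.87, 5.88 and 5.26 FPKM to 11.3, 11.5 and 10.9 FPKM. The groups did not overlap in either line, but the A549 log2 change of 0.95 ± 0.08 stayed short of a doubling on the scale with a pseudocount of 1 (limma, adjusted p = 3.11e-05). It was 1.06 with a pseudocount of 0.1 and 1.06 with limma voom on recovered reads, both called.

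CHAC1 (ENSG00000128965, chr15:40952962-40956512, plus strand) encodes a glutathione-degrading enzyme and is a widely used readout of ATF4 and CHOP activity. It was low throughout. In H460 the controls were 1.59, 1.38 and 0.818 FPKM and the ISP-I libraries 0.736, 0.937 and 0.920 FPKM, or 25 to 47 reads and 27 to 32 reads. The groups overlapped, and the log2 change of -0.27 had a 95% interval of -0.58 to 0.04 (limma, adjusted p = 0.111). In A549 it was 2.50, 2.29 and 2.44 FPKM in the controls and 0.718, 1.46 and 1.22 FPKM with ISP-I, lower in every treated library. The log2 change there was -0.69 ± 0.13 (limma, adjusted p = 0.00213), and it passed 2-fold with a pseudocount of 0.1 (-1.07) and with limma voom (-1.15), since a pseudocount of 1 draws such low values toward 0.

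NUPR1 (ENSG00000176046, chr16:28532708-28539008, minus strand), a small stress-induced chromatin protein gene, could not be followed. It had 0 to 2 reads in every library, under the level that 3 reads would give (0.0305 to 0.0383 FPKM), and was left out of the tests. A change was not detectable at this depth.

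**Figure D3:**
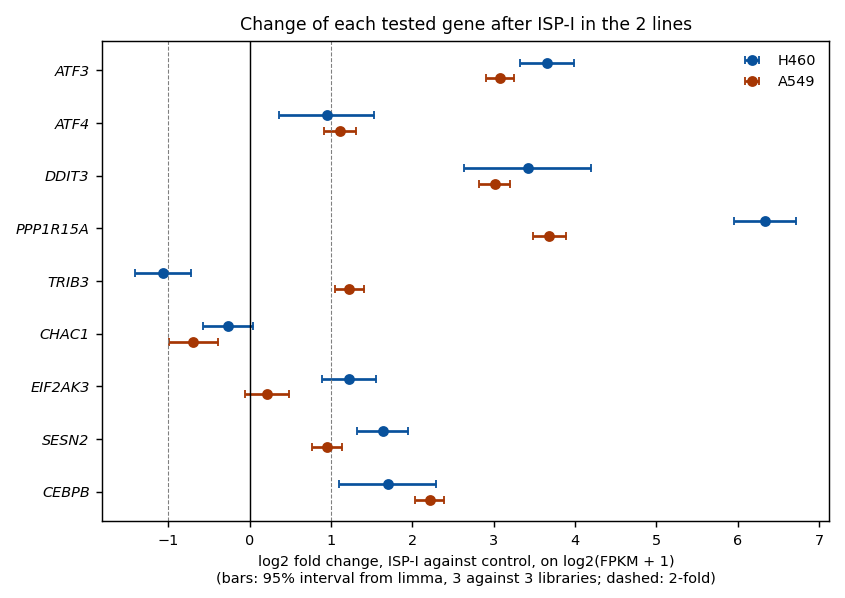
Change of the 9 tested genes on log2(FPKM + 1), ISP-I against control, with the 95% interval from limma for H460 and A549; dashed lines mark 2-fold. PPP1R15A reached 6.34 in H460 and 3.68 in A549, TRIB3 stood at -1.06 and 1.22, and the CHAC1 estimates were below 0 in both lines.

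The second question was whether the lines responded differently, which was tested as the interaction of line and treatment over all 12 libraries. The change differed in 2 members toward H460 and in 1 toward A549, where 5.93% and 10.1% of all genes tested did so. After median-of-ratios scaling 1298 genes of 13964 differed toward H460 and 825 toward A549, against 827 and 1407 of 13953, with 2 and 1 members as before. PPP1R15A changed by 2.66 more in H460 on the log2 scale (limma, adjusted p = 5.42e-07). TRIB3 changed by -2.28, that is toward A549 (limma, adjusted p = 7.03e-07). EIF2AK3 changed by 1.01 more in H460 (limma, adjusted p = 0.000769), close to the threshold: it came to 0.89 to 0.999 when H460 control library 2 or 3, H460 ISP-I library 1 or 2, A549 control library 1 or A549 ISP-I library 1 was left out. ATF3 (0.58) and SESN2 (0.68) passed on p and stayed short of 2-fold (limma, adjusted p = 0.00871 and 0.0026).

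For ATF4, DDIT3, CHAC1 and CEBPB a difference between the lines was not detected, and the intervals were wide. The 95% interval of the difference was -0.80 to 0.46 for ATF4, -0.47 to 1.28 for DDIT3, -0.01 to 0.86 for CHAC1 and -1.17 to 0.13 for CEBPB. Here too H460 ISP-I library 3 mattered. Without it the difference was -0.48 for ATF4 (limma, adjusted p = 0.0071) and -0.78 for CEBPB (limma, adjusted p = 0.00844), both toward A549 and under 2-fold, and -0.04 for DDIT3 in place of 0.41.

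Untreated, the lines differed in 2 members. PPP1R15A was 3.04-fold lower in H460 than in A549 in mean FPKM, with a log2 difference of -1.51 (limma, adjusted p = 1.13e-06), and CEBPB was 2.15-fold higher, with a log2 difference of 1.07 (limma, adjusted p = 0.000842) that was 0.99 without H460 control library 3. These were 1 of 9 members higher and 1 of 9 lower, beside 5.47% and 8.5% of all genes tested. CHAC1 was lower in H460 by less than 2-fold on that scale (-0.61, limma, adjusted p = 0.00282). With ISP-I the order for PPP1R15A was turned round. It was 2.24-fold higher in H460 in mean FPKM, with a log2 difference of 1.15 (limma, adjusted p = 9.09e-06) that was 0.99 without H460 ISP-I library 3. TRIB3 was 4.27-fold lower in H460 in mean FPKM, with a log2 difference of -2.04 (limma, adjusted p = 1.50e-08). Among treated libraries, 7.66% of all genes tested were higher in H460 and 16% lower. DDIT3 (0.96), EIF2AK3 (0.84), CEBPB (0.55), SESN2 (0.49) and ATF3 (0.37) were higher in treated H460 by less than 2-fold on the log2(FPKM + 1) scale, with limma adjusted p values of 0.000109 to 0.0329. In mean FPKM the ratios were 2.26 for DDIT3 and 2.06 for EIF2AK3, and both were called after median-of-ratios scaling (1.31 and 1.15), after quantile normalization (1.02 and 1.16) and with a pseudocount of 0.1 (1.01 for each).

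The order of levels within a group also changed. In H460 controls the means ran from ATF4 (175 FPKM) through CEBPB (60.0), TRIB3 (34.1), PPP1R15A (9.44), SESN2 (4.54), EIF2AK3 (2.24), DDIT3 (1.58), CHAC1 (1.26) and ATF3 (1.04) to NUPR1. Libraries overlapped between each pair of neighbours from EIF2AK3 to ATF3, while every EIF2AK3 library lay above every CHAC1 and ATF3 library. With ISP-I the H460 order was PPP1R15A (851 FPKM), ATF4 (356), CEBPB (206), DDIT3 (29.3), ATF3 (24.8), SESN2 (16.20), TRIB3 (15.97), EIF2AK3 (6.58) and CHAC1 (0.864). ATF4 and CEBPB, DDIT3 and ATF3, and SESN2 and TRIB3 overlapped there.

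In A549 controls ATF4 (129 FPKM) was followed by TRIB3 (28.8), PPP1R15A (28.7) and CEBPB (27.9), which overlapped, then by SESN2 (5.34), EIF2AK3 (2.65), CHAC1 (2.41), ATF3 (1.34) and DDIT3 (0.737). EIF2AK3 and CHAC1 overlapped as well. With ISP-I the A549 order was PPP1R15A (379 FPKM), ATF4 (278), CEBPB (133), TRIB3 (68.2), ATF3 (18.8), DDIT3 (13.0), SESN2 (11.2), EIF2AK3 (3.20) and CHAC1 (1.13), and no neighbours overlapped. PPP1R15A stood first and ATF4 second in treated cells of both lines.

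Within a line, the H460 ISP-I libraries varied more than those of A549. H460 ISP-I library 3 was the highest of its group for ATF3, ATF4, DDIT3, PPP1R15A, TRIB3 and CEBPB and the lowest for EIF2AK3. Its median-of-ratios factor, 0.849, lay between those of the other H460 ISP-I libraries, 0.842 and 0.855. Its FPKM summed over all genes, 273625, was above theirs, 240799 and 228594, and the reason was not tested. Over all genes it stood apart, with a chi-square per degree of freedom of 58.1 and 98.7 against libraries 1 and 2, which gave 22.9 against each other, and it had the fewest reads of its group (14839238 against 16656614 and 17874422). The reads on mitochondrial genes were 2.50% in that library and 2.79% and 2.43% in the other H460 ISP-I libraries. Counts of members called in H460 were 6 higher and 1 lower with and without it. Among A549 controls, library 3 stood apart, with 28.0 and 32.5 against libraries 1 and 2, which gave 3.38 against each other. It was the highest of its group for ATF4, PPP1R15A, TRIB3 and CEBPB and the lowest for ATF3, DDIT3 and EIF2AK3. Counts of members called in A549 were 6 higher and 0 lower with and without that control.

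**Figure D4:**
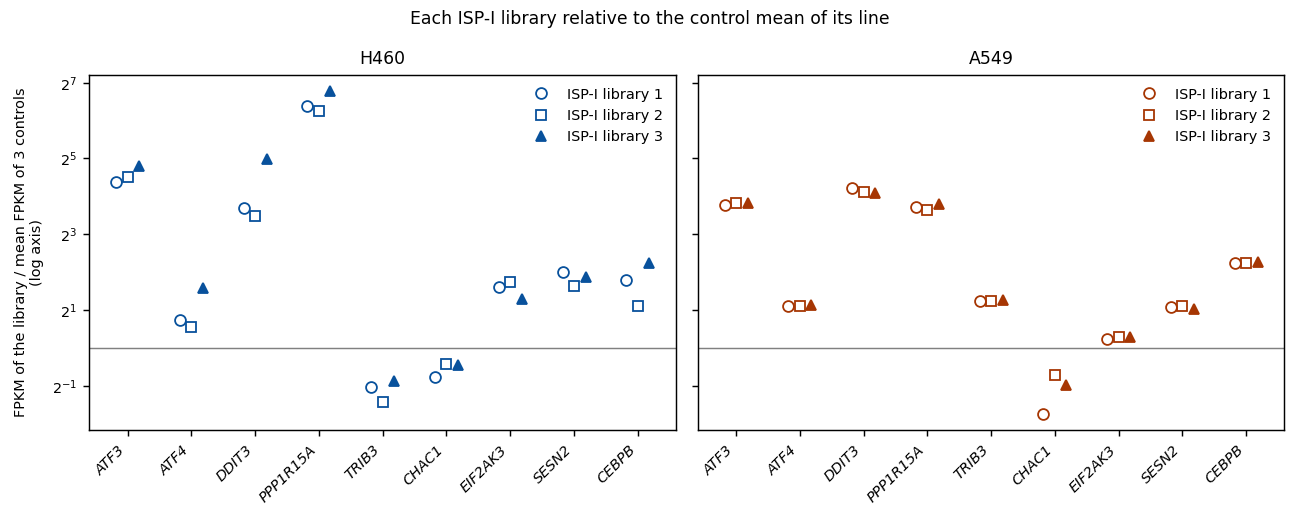
FPKM of each ISP-I library over the mean FPKM of the 3 controls of its line, on a log axis, for the 9 genes above the level of 3 reads; filled triangles are ISP-I library 3. In H460, library 3 lies above the other libraries for ATF4, DDIT3, PPP1R15A and CEBPB, while the A549 libraries nearly coincide for ATF4, TRIB3 and CEBPB.

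The members also differ in the part of the mRNA ahead of the coding sequence, where upstream start codons are known to govern translation during eIF2 phosphorylation. In the MANE Select transcripts, ATF4 and DDIT3 held 3 ATG triplets in that leader, PPP1R15A and TRIB3 held 2, EIF2AK3 and SESN2 held 1, and ATF3, CHAC1, CEBPB and NUPR1 held 0. Of 19061 MANE Select transcripts, 41.9% held at least 1 and 22.9% at least 2. The leaders ranged from 67 bases in NUPR1 to 410 bases in TRIB3, and the median over all transcripts was 133 bases. The level of protein was not measured in these libraries.

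The other genes of the pathway were taken from lists written by role, with earlier results of these data known. The counts beside the shares of all genes therefore describe the lists and are no independent test. The first list held the eIF2 kinases other than PERK, the eIF2 subunits and related factors such as DNAJC3 and GCN1. In it, 1 of 12 genes rose and 2 fell in H460, beside 10.5% and 15.2% of all genes. In A549, 0 of 12 were called, where 4.2% of all genes rose and 3.51% fell. The H460 counts were 3 and 1 after median-of-ratios scaling and 3 and 2 with limma voom under that scaling. EIF2AK2 (PKR), the kinase that senses double-stranded RNA, fell from 13.0 ± 1.32 to 3.10 ± 0.754 FPKM in H460 (log2 change -1.78, limma, adjusted p = 1.93e-05). EIF2AK1 (HRI), the haem-regulated kinase, fell from 33.4 to 15.9 FPKM (-1.02). DNAJC3, an inhibitor of PERK and PKR, rose from 7.48 to 22.2 FPKM (1.43). In A549 the smallest p values belonged to EIF2S1 (0.66), GCN1 (-0.43) and EIF2AK1 (-0.43), all under 2-fold. In A549, limma gave 4 genes higher and 3 lower at an unadjusted p under 0.05, and likewise at an adjusted p under 0.05 at any fold. There limma voom called 1 of the list, lower.

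Of the 9 genes of the eIF2B exchange factor and the eIF2 phosphatase, 1 rose and 1 fell in H460, beside 10.5% and 15.2% of all genes. In A549, 0 were called, where 4.2% of all genes rose and 3.51% fell. PPP1R15B, the constitutive counterpart of PPP1R15A, rose from 44.9 ± 1.32 to 95.8 ± 10.7 FPKM in H460 (1.07, limma, adjusted p = 0.0001). EIF2B1 fell from 35.5 to 16.5 FPKM (-1.06), a call lost after median-of-ratios scaling, and PPP1CC, a catalytic subunit, had -0.66. In A549, EIF2B2 (0.61), PPP1R15B (0.60) and EIF2B4 (0.53) led the list, all under 2-fold. At an unadjusted p under 0.05, and likewise at an adjusted p under 0.05 at any fold, limma gave 6 genes higher and 2 lower in A549. There limma voom called 0.

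The bZIP factors that can pair with or act beside ATF4 and CHOP had the highest median of these lists in H460. Of 15 genes, 8 rose and 1 fell in H460, beside 10.5% and 15.2% of all genes, with a median of 1.30. In A549, 5 rose and 0 fell, beside 4.2% and 3.51%, with a median of 0.31. In A549, 4 were lower at an unadjusted p under 0.05 in limma, 3 were lower at an adjusted p under 0.05 at any fold, and limma voom called 1 lower. JUN rose from 11.3 ± 0.731 to 387 ± 27.9 FPKM in H460 (4.97, limma, adjusted p = 6.96e-08), and its A549 means were 36.6 and 108 FPKM (1.54). FOS rose from 1.46 to 96.9 FPKM (5.31) in H460. FOSL1, an AP-1 subunit, rose from 55.1 to 689 FPKM in H460 (3.62) and in A549 from 112 to 309 FPKM (1.45), and MAFF rose from 1.28 to 7.55 FPKM in A549 (1.90). The change differed between the lines for 8 of the 15 toward H460 and 1 toward A549, beside 5.93% and 10.1% of all genes. JUN differed by 3.43 (limma, adjusted p = 2.55e-09).

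The amino acid genes that ATF4 is known to activate fell more often than they rose. Of the 19 tested, 1 rose and 9 fell in H460, beside 10.5% and 15.2% of all genes, and 0 rose and 9 fell in A549, beside 4.2% and 3.51%. The median log2 change was -0.92 in each line, or -0.66 in H460 after median-of-ratios scaling. In A549, 1 gene was higher at an unadjusted p under 0.05 in limma, and limma voom called 0 higher. PSAT1, of serine synthesis, fell from 120 ± 13.7 to 9.02 ± 1.01 FPKM in H460 (-3.60, limma, adjusted p = 3.44e-07) and from 124 ± 3.64 to 39.3 ± 0.678 FPKM in A549 (-1.64, limma, adjusted p = 7.03e-07). GPT2, an alanine aminotransferase, fell from 7.03 to 1.06 FPKM (-1.96) and PSPH, also of serine synthesis, from 7.23 to 1.14 FPKM (-1.93) in H460. PHGDH, the first enzyme of that route, fell from 5.94 to 1.204 FPKM (-1.65) and SLC7A5, a transporter of large neutral amino acids, from 537 to 212 FPKM (-1.34) in A549. ASNS, the asparagine synthetase gene often used as an ATF4 readout, was at most 0.305 FPKM in the group means of both lines (log2 change 0.04 and -0.11). The one that rose in H460 was SLC3A2, the partner chain of SLC7A5, from 104 to 365 FPKM (1.79). ASNS and SLC3A2 were picked out after their values were seen.

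The tRNA synthetase genes are a further group of ATF4 targets, of which 0 of 12 rose and 2 fell in H460, beside 10.5% and 15.2% of all genes. In A549, 0 were called, where 4.2% of all genes rose and 3.51% fell. After median-of-ratios scaling, in limma and in limma voom, 1 fell in H460. AARS1 fell from 34.1 to 15.9 FPKM (-1.06) and EPRS1 from 46.5 to 17.1 FPKM (-1.45) in H460, and MARS1 had -0.97. In A549, MARS1 (-0.82), AARS1 (-0.63) and SARS1 (0.37) had the smallest p values and none reached 2-fold. At an unadjusted p under 0.05 in limma, 3 genes were higher in H460, and 1 was higher and 7 were lower in A549, where limma voom also called 0. At an adjusted p under 0.05 at any fold, 3 were higher in H460, and 1 was higher and 5 were lower in A549.

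Of 18 other targets of ATF4 or CHOP, 17 were in the table and 15 were tested. In H460, 5 of the 15 rose and 2 fell, beside 10.5% and 15.2% of all genes tested. In A549, 4 rose and 2 fell, beside 4.2% and 3.51%. GDF15, a secreted stress cytokine, rose from 8.005 ± 1.35 to 60.9 ± 19.9 FPKM in H460 (2.75, limma, adjusted p = 1.08e-05) and from 23.5 ± 4.11 to 99.2 ± 3.47 FPKM in A549 (2.04, limma, adjusted p = 4.49e-06). STC2, a secreted glycoprotein, rose from 46.5 to 151 FPKM (1.67) and from 17.2 to 49.7 FPKM (1.48). KLHL24 rose from 0.409 to 3.96 FPKM in H460 (1.80), and BBC3, which encodes the BH3-only protein PUMA, rose from 4.03 to 15.7 FPKM in A549 (1.73). The genes that fell in both lines were DDIT4, an inhibitor of mTORC1, and EIF4EBP1, a repressor of translation initiation, both singled out after their values were seen. DDIT4 went from 119 to 14.5 FPKM in H460 (-3.04) and in A549 from 31.6 to 13.9 FPKM (-1.12), and EIF4EBP1 had -2.34 and -1.22.

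The IRE1 and ATF6 branches, which act beside PERK in the unfolded protein response, held genes called in both directions. In H460, 5 of 20 genes rose and 3 fell, beside 10.5% and 15.2% of all genes tested. In A549, 2 of 19 rose and 3 fell, beside 4.2% and 3.51%. DNAJB9, an endoplasmic reticulum co-chaperone, rose from 2.88 ± 0.167 to 43.0 ± 2.65 FPKM (3.501, limma, adjusted p = 1.62e-07) and XBP1, the factor spliced by IRE1, from 24.1 to 147 FPKM (2.53) in H460. MBTPS1, the protease that activates ATF6, fell from 14.6 to 2.10 FPKM in H460 (-2.33) and, in A549, from 15.2 to 5.12 FPKM (-1.41). The chaperones PDIA4 (-1.67) and CALR (-1.40) fell in A549. The change of 6 of the 19 genes differed between the lines toward H460 and of 0 toward A549, beside 5.93% and 10.1% of all genes. At any fold, 2 differed toward A549 at an unadjusted p under 0.05 in limma, and likewise at an adjusted p under 0.05.

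**Figure D5:**
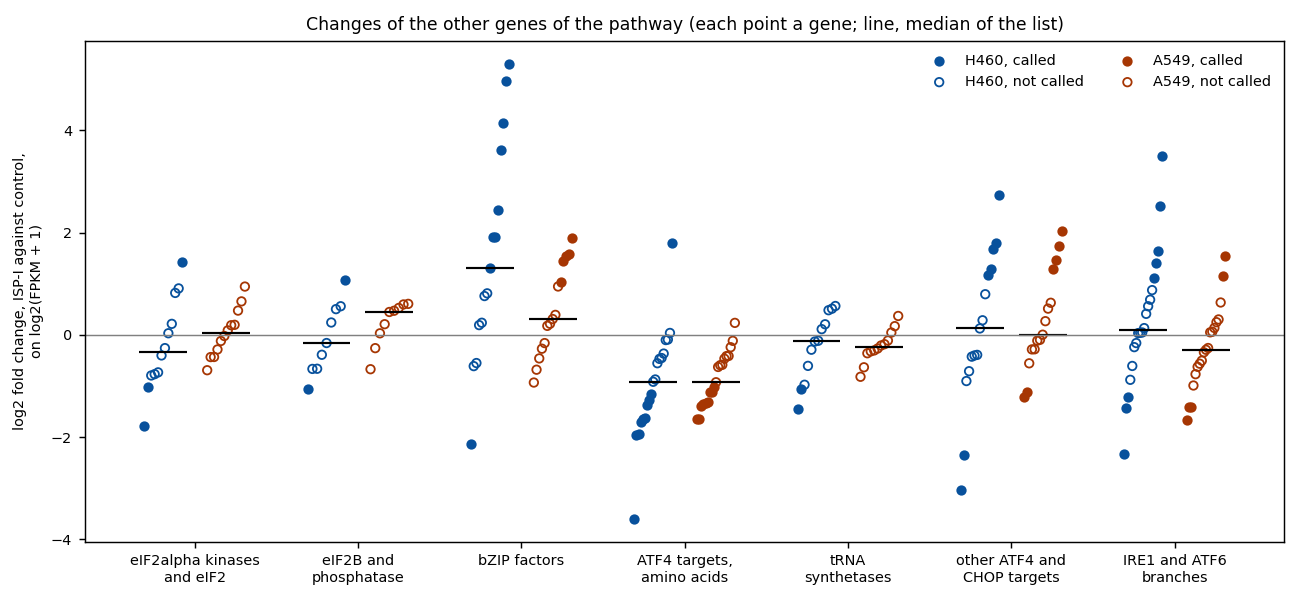
Change of each gene of 7 pathway lists on log2(FPKM + 1), ISP-I against control, in H460 and A549; filled points are called, and lines are list medians. The bZIP factors lie highest in H460, with a median of 1.30, and the amino acid targets lie at a median of -0.92 in both lines.

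Close relatives of the members were read as well. TRIB1 rose from 3.17 ± 0.210 to 22.6 ± 1.94 FPKM in H460 (2.50, limma, adjusted p = 7.74e-07), where TRIB3 fell, and had 0.35 in A549, where TRIB3 rose. TRIB2 fell in H460 (-1.71) and had -0.54 in A549. SESN1 had -0.14 and 0.30, and SESN3 had -0.54 in H460 and was too low to test in A549. CHAC2 had -0.04 and 0.37. Of the CEBPB relatives, CEBPA rose in A549 (1.03) and had 0.19 in H460, CEBPD had 0.81 in H460 and -0.27 in A549, and CEBPG had 0.76 and 0.39. ATF5, the closest relative of ATF4, rose in H460 (1.30) and had 0.95 in A549, and NUPR2 was too low to test. The change of TRIB1, TRIB2 and CEBPD differed between the lines, by 2.14, -1.17 and 1.083 (limma, adjusted p = 1.27e-07, 1.87e-05 and 0.00476).

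Over genes averaging 5 FPKM or more, the profiles most like a member were found by the root-mean-square distance of centred log2 values over the 12 libraries, as a description. For ATF4 they were C16orf91 (0.12), ATG101 (0.15) and PNP (0.17), and for ATF3 they were SNAPC1 (0.19), PLA2G4C (0.19) and RHCG (0.26). For DDIT3 they were S100A2 (0.34), BEX2 (0.38) and SQSTM1 (0.41). SQSTM1, the gene of the autophagy receptor p62, went from 265 to 1636 FPKM in H460 and in A549 from 147 to 904 FPKM.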

How the data were processed

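RNA of 12 libraries (H460 and A549, control and ISP-I, 3 each) was sequenced as paired-end reads. According to the methods and the submitters' processing notes, the authors used FastQC to filter, HISAT2 to map against hg38 and HTSeq 0.9.1 to count, and deposited FPKM. The annotation version and strand setting are not given in the sources used here. FPKM times gene length was a whole multiple of 1 read (within 0.02) for 100% of values, so reads were recovered. Left out were 4 lines that held fragments of a broken text cell. Column names give line, treatment and a number that runs over both treatments of a line. Library numbers used here follow the column order within a group and are not known to be the replicate numbers of the labels.

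In each line, log2(FPKM + 1) was compared with limma 3.58.1 (R 4.3.3, mean-variance trend) for genes averaging 0.1 FPKM or more, with Benjamini-Hochberg adjustment, and called at a fold over 2 and adjusted p under 0.05. Comparisons between lines used a fit of all 12 libraries. A pseudocount of 1 understates changes of low genes. Alternatives were a pseudocount of 0.1, a filter at 1 FPKM or none, median-of-ratios and quantile scaling, limma voom on recovered reads (at least 10 in 3 libraries), a single fit, any fold, and each library left out. The limma fit was tested on simulated data.

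Named were the 10 members, the 3 genes of each list with the smallest adjusted p in each line, the relatives, and the 3 nearest profiles. The members and lists were chosen with earlier results of these data known. Promoters and transcripts came from hg38 with the GENCODE annotation, and the promoter of NUPR1 is not reported here. Tables were handled with Python 3.11.15 and pandas 2.3.3.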

Additional observations from a re-analysis of the deposited data

Results flagged for a closer look

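The change with ISP-I differed between the lines, by the interaction test over all 12 libraries, in 3 members. For PPP1R15A the change was 2.66 larger in H460 on the log2 scale, and the gene rose in both lines. For TRIB3 the difference was -2.28, with a fall in all 3 treated H460 libraries and a rise in all 3 treated A549 libraries. For EIF2AK3 the difference was 1.01, with a rise in H460 and, in A549, treated libraries within the range of the controls.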

How the results depend on the processing

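The 6 members called higher in each line ranged from 6 to 7 in H460 and from 5 to 7 in A549 over the alternatives run. The 1 member called lower in H460 became 0 with median-of-ratios scaling and with limma voom at median-of-ratios (TRIB3 -0.79 and -0.82), and ranged from 0 to 1 with a library left out. The 0 called lower in A549 became 1 (CHAC1) with a pseudocount of 0.1, with both voom fits and at any fold.

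Members whose change was larger in H460 became 4 with voom at median-of-ratios and at any fold, and ranged from 1 to 2 with a library left out. The 1 member higher in untreated H460 became 0 with quantile normalization and ranged from 0 to 1 with a library left out, and the 1 lower became 2 at any fold. The 1 member higher in treated H460 became 3 with a pseudocount of 0.1, median-of-ratios, quantile normalization and voom at median-of-ratios, 2 with voom at library totals and 6 at any fold, and ranged from 0 to 2 with a library left out.

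Values that changed sign were not called under any of these alternatives: the ATF4 difference between the lines (0.148 with median-of-ratios and 0.145 with voom at median-of-ratios; -0.479 to 0.0321 with a library left out), that of DDIT3 (-0.0526 with voom at library totals; -0.0419 to 0.679 with a library left out), and in treated cells the difference in ATF4 (-0.0301 to 0.481 with a library left out) and CHAC1 (0.179 with quantile normalization, 0.0195 with voom at median-of-ratios). Of the values of single members, 611 kept direction and side of the threshold, 13 lost a call, 25 gained one and 8 changed sign. Except for fewer libraries or the threshold itself, the cause was not tested.

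No paired analysis was possible because the columns carry no replicate number that matches the labels. Depth limited NUPR1, CHAC1 and DDIT3 in controls, read at 0 to 74 reads per library.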
